A study of Homo sapiens with 6 samples.

Results

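The expression of 42 genes of glycolysis and the hypoxia response was compared between NS control and BCL9 KD cells of the DCIS.COM line. The genes were chosen by name from the 58676 genes in the expression table, with earlier results of these data known. They are the HIF factors and their oxygen sensors, glucose and lactate transporters, glycolytic enzymes and their PFKFB regulators, genes of pyruvate fate and HIF targets outside glycolysis. DCIS.COM is an established human breast cancer line of the basal type, used in the study as a cell model of ductal carcinoma in situ (DCIS). All cells were transduced with a lentiviral PLKO.1 vector, which carried a BCL9 shRNA in the BCL9 KD cells and a non-silencing shRNA in the NS control cells. RNA-seq was performed on 3 samples of each group, with a flask of cells per sample, and values of single samples are given throughout in the order of replicates 1, 2 and 3. Both groups were grown in DMEM/F12 with horse serum and antibiotic, and the labels name no hypoxic treatment of either. A single BCL9 shRNA sequence is given in the methods, so an effect of the shRNA other than on BCL9 cannot be told apart from an effect of BCL9 KD.

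Glycolysis converts glucose to pyruvate in the cytosol, and lactate dehydrogenase reduces pyruvate to lactate, which monocarboxylate transporters carry out of the cell. The hypoxia-inducible factors are pairs of an oxygen-regulated α subunit, HIF-1α (HIF1A) or HIF-2α (EPAS1), and the stable partner ARNT. In the presence of oxygen, the prolyl hydroxylases EGLN1 and EGLN3 mark the α subunits, and VHL then directs them to the proteasome. This control acts on the proteins, while RNA-seq measures the transcripts. When oxygen is low, the factors bind a short core motif near genes of glucose uptake, glycolysis, pH control, mitophagy and collagen modification and raise their transcription. Many breast cancers run glycolysis at a high rate also when oxygen is present.

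Of the 42 genes, 38 had a mean FPKM (reads per kilobase of gene, scaled to the depth of the sample) of at least 0.5 over the 6 samples and were tested by limma on log2(FPKM + 0.5) together with all other genes. At a Benjamini-Hochberg adjusted p under 0.05 over the 13745 genes tested, EPAS1, CA9, BNIP3 and PFKP fell in BCL9 KD cells and SLC16A3 rose. These 5 genes are 13.2% of the 38 tested, where 5.87% of all genes tested passed, 2.96% higher and 2.91% lower. Of the 14 glycolytic enzymes tested, 12 had a log2 fold change below 0 and PFKP alone passed. The count of 5 depended on the samples: it was 0 without NS control replicate 2, without BCL9 KD replicate 2 or without BCL9 KD replicate 3, 3 without BCL9 KD replicate 1 and 8 without NS control replicate 3, where 5.35% and 12.5% of all genes passed. In the 3 fits that called 0, 10, 10 and 9 of the 38 had an unadjusted p under 0.05 by limma (26.3%, 26.3% and 23.7%), beside 19.1%, 17.5% and 17.0% of all genes. In bulk RNA, fewer cells that express a gene and less RNA per cell cannot be told apart.

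The promoters of the 5 genes are shown because these genes passed the test, and the letters searched are the cores of the motif that the HIF factors are known to bind. Each sequence spans 300 bases of GRCh38.p14 from RefSeq, from 250 bases before to 50 bases after the annotated start, and is written 5′ to 3′ on the strand of the gene. For SLC16A3 and PFKP, which have several annotated starts, the start whose window holds the most ACGTG matches is given. Capitals mark ACGTG or GCGTG on either strand, so that a match on the opposite strand reads CACGT or CACGC, and neighbouring matches can overlap. The windows are chr2:46297157-46297456 on the + strand for EPAS1, chr9:35673678-35673977 on the + strand for CA9, chr10:131981874-131982173 on the − strand for BNIP3, chr10:3068939-3069238 on the + strand for PFKP and chr17:82228792-82229091 on the + strand for SLC16A3.
EPAS1: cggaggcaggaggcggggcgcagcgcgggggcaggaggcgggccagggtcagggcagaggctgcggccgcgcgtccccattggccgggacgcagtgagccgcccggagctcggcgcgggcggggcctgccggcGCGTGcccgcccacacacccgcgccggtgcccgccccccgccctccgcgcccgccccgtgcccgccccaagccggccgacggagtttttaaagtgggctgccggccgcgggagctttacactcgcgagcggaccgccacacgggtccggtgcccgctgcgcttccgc
CA9: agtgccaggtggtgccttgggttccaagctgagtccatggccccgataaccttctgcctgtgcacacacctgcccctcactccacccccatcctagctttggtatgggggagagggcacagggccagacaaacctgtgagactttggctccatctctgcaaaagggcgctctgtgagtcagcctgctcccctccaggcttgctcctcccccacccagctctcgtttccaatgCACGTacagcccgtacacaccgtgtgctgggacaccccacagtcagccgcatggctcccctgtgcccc
BNIP3: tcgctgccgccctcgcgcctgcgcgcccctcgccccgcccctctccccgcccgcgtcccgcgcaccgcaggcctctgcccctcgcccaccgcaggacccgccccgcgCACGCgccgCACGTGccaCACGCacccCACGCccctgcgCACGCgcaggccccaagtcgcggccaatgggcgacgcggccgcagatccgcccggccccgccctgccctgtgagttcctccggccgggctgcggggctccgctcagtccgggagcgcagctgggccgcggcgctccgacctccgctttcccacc
PFKP: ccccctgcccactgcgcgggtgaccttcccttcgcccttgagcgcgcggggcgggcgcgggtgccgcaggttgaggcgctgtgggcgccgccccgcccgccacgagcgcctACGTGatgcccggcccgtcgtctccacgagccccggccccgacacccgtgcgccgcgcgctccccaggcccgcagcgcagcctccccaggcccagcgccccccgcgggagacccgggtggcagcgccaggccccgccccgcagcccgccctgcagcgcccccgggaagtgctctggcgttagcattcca
SLC16A3: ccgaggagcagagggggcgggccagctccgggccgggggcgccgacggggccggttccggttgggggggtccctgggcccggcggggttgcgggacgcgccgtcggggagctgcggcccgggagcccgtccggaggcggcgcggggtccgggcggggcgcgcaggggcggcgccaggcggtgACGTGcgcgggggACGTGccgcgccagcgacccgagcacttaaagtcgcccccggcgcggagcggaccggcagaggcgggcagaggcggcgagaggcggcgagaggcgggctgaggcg
BNIP3 had 2 matches to ACGTG and 4 to GCGTG over both strands, which lie at 5 distinct places. The window shown for SLC16A3 had 2 matches to ACGTG, that for PFKP and that for CA9 had 1 each, and that for EPAS1 had 1 match to GCGTG. Of the 5 windows of SLC16A3 and the 4 of PFKP, 2 each had no match, and the others not shown had only GCGTG. Promoter windows were found for 37 of the 42 genes. Of their 65 windows, 67.7% held ACGTG or GCGTG on either strand, and so did 48.4% of all 35116 promoter windows of the same length. ACGTG alone was in 38.5% of the windows of these genes and in 21.4% of all windows. Many of the 42 genes were chosen as HIF targets, so these shares describe the choice of genes and not an effect of BCL9 KD. Some windows of the same gene overlap, with 1.76 windows per gene here and 1.29 over all genes. The windows were not matched for GC content. A match gives only the letters in the window and does not show that a factor was bound there.

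BCL9 itself was at 6.25, 6.24 and 5.34 FPKM in the NS control samples and at 2.86, 2.78 and 2.59 FPKM in the BCL9 KD samples. Its log2 fold change was −0.99 (SE 0.0933, limma adjusted p = 0.00773). Leaving out NS control replicate 2, BCL9 KD replicate 2 or BCL9 KD replicate 3 raised the adjusted p to 0.0636, 0.0600 and 0.0700, and BCL9 passed in the other 3 such fits. The reads counted on genes were between 15222452 and 22712638 in NS control samples and between 15665714 and 26949026 in BCL9 KD samples. All 7 basal markers listed had at least 1 FPKM in every sample, with a summed level of 1039 to 1212 FPKM and KRT5 between 379 and 436 FPKM and KRT17 between 529 and 650 FPKM, and ESR1 was at 0.0980 FPKM or less. Of the basal markers, TP63 was higher in every BCL9 KD sample (17.1 to 18.3 against 12.5 to 17.0 FPKM) and EGFR lower (16.7 to 19.6 against 20.4 to 23.3 FPKM), and the other 5 overlapped. The luminal keratins KRT8 and KRT18 were also expressed and were lower in every BCL9 KD sample, at 262 to 333 and 161 to 205 FPKM in NS control and 242 to 246 and 142 to 156 FPKM in BCL9 KD samples. ERBB2 was at 18.0 to 20.6 and 14.9 to 17.3 FPKM. GATA3 (7.45 to 9.28 and 7.08 to 8.32 FPKM) and FOXA1 (3.02 to 3.65 and 2.97 to 3.29 FPKM) overlapped between groups, and the 7 luminal markers, of which 5 had at least 1 FPKM, summed to 452 to 572 and 413 to 428 FPKM. Among the leukocyte markers, PTPRC, CD3E and CD68 were at or near 0. The 5 fibroblast markers were each under 1 FPKM, with COL3A1 at 0, COL1A1 at 0.484 to 0.665 FPKM and PDGFRB at 0.0494 to 0.0554 FPKM in NS control and 0.0716 to 0.103 FPKM in BCL9 KD samples, and their sum was 0.695 to 0.720 and 0.731 to 0.899 FPKM. PECAM1, an endothelial marker, was at 1.72 to 2.29 FPKM in NS control and 3.11 to 3.91 FPKM in BCL9 KD samples, while the other endothelial markers CDH5, VWF and KDR stayed at 0.163 FPKM or less. CD14, a monocyte marker, was at 0.288 to 0.560 FPKM in NS control and 0.778 to 1.38 FPKM in BCL9 KD samples, and the part of these marker differences in the results below was not tested. NS control replicate 1 stood apart in base composition: the median deviation of 1345 genes with a transcript GC content under 40% from their 6-sample mean was −0.51 on the log2 scale in this sample and between −0.06 and 0.19 in the others. Values with a GC correction are given below for the genes tested with a transcript GC content under 45% and for some others. The correction is a loess curve of the log2 values on GC content fitted in each sample.

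EPAS1 (ENSG00000116016, chromosome 2 of GRCh38 from 46293667 to 46386703) encodes HIF-2α. Its expression was 17.5, 16.7 and 15.3 FPKM in the NS control samples and 10.4, 9.73 and 9.36 FPKM in the BCL9 KD samples. The groups did not overlap, with every BCL9 KD sample lower. The mean fell by 40.3%, from 16.5 ± 1.12 to 9.84 ± 0.533 FPKM (SD, n = 3), with a log2 fold change of −0.72 (SE 0.0808, 95% confidence interval −0.91 to −0.52, limma adjusted p = 0.0117). With all samples it was the largest log2 fold change in size among the 38 tested, while without NS control replicate 3 that of HIF1A was larger (0.91 against −0.77). With the GC correction it was −0.69 (limma adjusted p = 0.00519). The adjusted p was 0.0802 without NS control replicate 2, 0.0863 without BCL9 KD replicate 2 and 0.0913 without BCL9 KD replicate 3, while the log2 fold change stayed between −0.77 and −0.67 in all fits that left out a sample.

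HIF1A (ENSG00000100644, chromosome 14 from 61695513 to 61748259) encodes HIF-1α and did not pass the test. Its expression was 34.5, 50.4 and 72.8 FPKM in the NS control samples and 82.7, 75.5 and 79.3 FPKM in the BCL9 KD samples. The BCL9 KD values were close to each other and all above the NS control values, which were spread widely, with means of 79.2 ± 3.63 and 52.6 ± 19.2 FPKM (SD, n = 3). The log2 fold change was 0.65 with a wide interval from 0.08 to 1.22 (SE 0.241, limma adjusted p = 0.141). The HIF1A transcripts have a GC content of 41.0%, and the lowest value was that of NS control replicate 1, the sample low for AT-rich genes. With the GC correction, the log2 fold change was 0.45 (limma adjusted p = 0.0774). It was 0.38 without NS control replicate 1 (limma adjusted p = 0.170) and 0.91 without NS control replicate 3, the one fit of those that left out a sample with an adjusted p under 0.05 (0.0317).

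The other genes of oxygen sensing that were tested did not pass. ARNT, the partner of both α subunits, had a log2 fold change of −0.13 (adjusted p = 0.289 by limma), with BCL9 KD values of 5.97 to 6.61 FPKM just below NS control values of 6.83 to 7.14 FPKM. EGLN1 had a log2 fold change of −0.01 with an interval from −0.20 to 0.19, and VHL of −0.02 with an interval from −0.19 to 0.16. The groups overlapped for both, and the sign of both changed in some fits that left out a sample. With the GC correction the log2 fold change of EGLN1 was −0.23 (limma adjusted p = 0.214) and that of VHL −0.03. EGLN3, whose transcript is itself a HIF target, was under the level tested, with 0.463 to 0.491 FPKM in NS control and 0.165 to 0.323 FPKM in BCL9 KD samples. Its values rest on 19 to 81 reads in a sample, and its row lies over the neighbouring gene SPTSSA on the same strand for 29568 bases, so no direction is read from it.

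**Figure D1:**
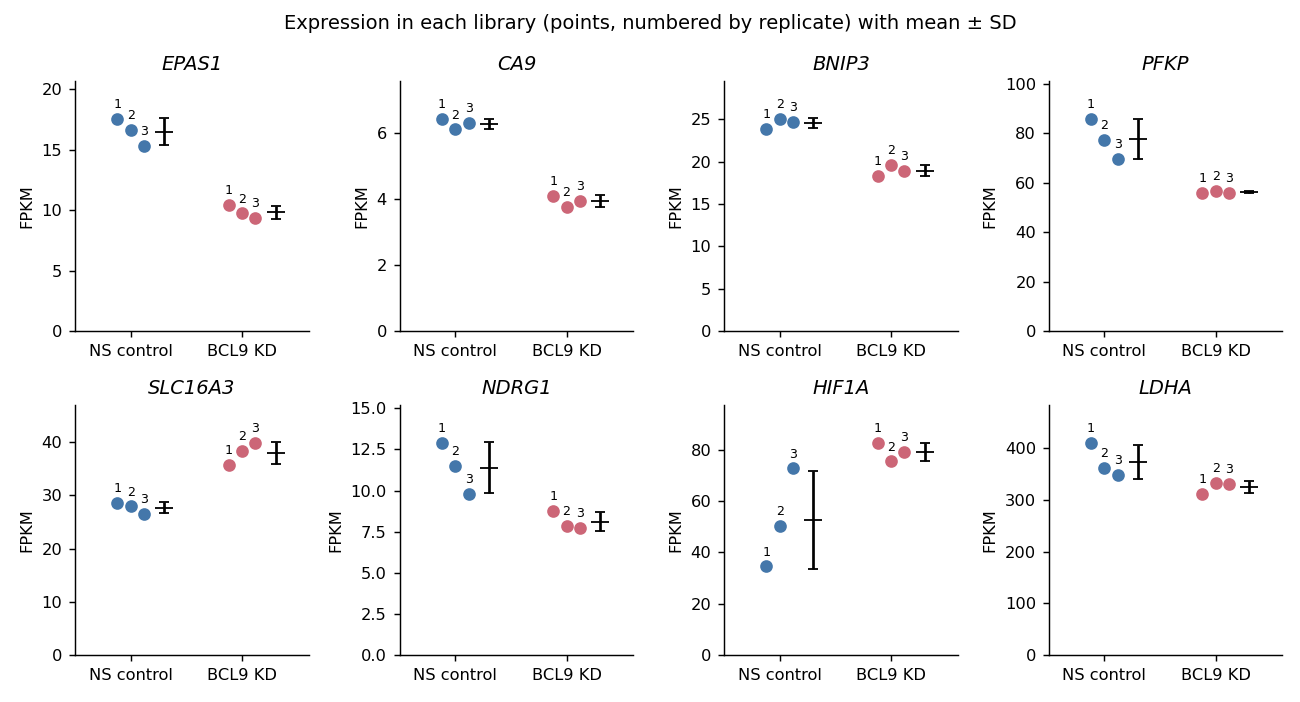
FPKM (y axis, from 0) of 8 genes in the 3 NS control samples (blue) and the 3 BCL9 KD samples (red), 1 point per sample with its replicate number, and the group mean with SD (n = 3) as a black bar. EPAS1, CA9, BNIP3 and PFKP passed the test lower and SLC16A3 higher, while the NS control values of HIF1A ran from 34.5 to 72.8 FPKM.

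Among the HIF targets outside glycolysis, CA9 and BNIP3 passed as lower and the other 9 of the 11 tested did not pass. These are 18.2% of the 11, beside 2.91% of all genes tested that passed as lower. CA9 (ENSG00000107159, chromosome 9 from 35673856 to 35681159) encodes the membrane carbonic anhydrase IX, which takes part in pH control and is widely used as a marker of hypoxia. It was at 6.41, 6.10 and 6.29 FPKM in the NS control samples and at 4.10, 3.76 and 3.94 FPKM in the BCL9 KD samples. The groups were far apart against their spread, with means of 6.27 ± 0.157 and 3.93 ± 0.172 FPKM (SD, n = 3). The log2 fold change was −0.61 (SE 0.0748, limma adjusted p = 0.0132). These values rest on 103 to 243 reads in a sample, and 27.5% of the gene lies over ARHGEF39 on the opposite strand, so its reads are less certain if the counting did not use strand, which is not given in the sources used here. The carbonic anhydrase CA12 was expressed at a higher level, 75.4 to 82.7 FPKM in NS control and 64.4 to 70.6 FPKM in BCL9 KD samples, and did not pass (log2 fold change −0.26, limma adjusted p = 0.0772), although its groups did not overlap.

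BNIP3 (ENSG00000176171, chromosome 10 from 131966455 to 131982013) encodes a mitochondrial receptor of mitophagy. Its expression was 23.8, 25.0 and 24.7 FPKM in the NS control samples and 18.3, 19.6 and 18.9 FPKM in the BCL9 KD samples. Every BCL9 KD value was below every NS control value, and the log2 fold change was −0.36 (SE 0.0639, limma adjusted p = 0.0318). The 39 pseudogenes of BNIP3 in the table held reads equal to 0.621% of those on BNIP3. Its relative BNIP3L, also a mitophagy receptor, was at 13.0, 16.8 and 19.4 FPKM in the NS control samples and 16.2, 14.8 and 14.2 FPKM in the BCL9 KD samples, with overlapping groups (log2 fold change −0.10, limma adjusted p = 0.672). The log2 fold change of BNIP3L was −0.17 with the GC correction, −0.26 without NS control replicate 1 and 0.03 without NS control replicate 3.

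Leaving out a sample changed both calls. For CA9, the adjusted p was 0.0811 without NS control replicate 2, 0.105 without BCL9 KD replicate 2 and 0.108 without BCL9 KD replicate 3. For BNIP3, it was 0.144, 0.148 and 0.163 in the same fits, 0.0518 without BCL9 KD replicate 1 and 0.0546 without a filter on low FPKM. The log2 fold changes stayed between −0.64 and −0.58 for CA9 and between −0.39 and −0.34 for BNIP3.

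NDRG1, a HIF target linked to stress and differentiation, was at 12.9, 11.5 and 9.78 FPKM in the NS control samples and at 8.78, 7.84 and 7.71 FPKM in the BCL9 KD samples. The groups did not overlap, and its log2 fold change of −0.46 was as large as that of PFKP (−0.46), with a wider error (SE 0.113, limma adjusted p = 0.0595). It passed with the GC correction (limma adjusted p = 0.0350) and by voom on the recovered reads (adjusted p = 0.0332), which called 6 of the 38 genes and 10.2% of all genes, 5.19% higher and 5.0% lower. ERO1A, an oxidase of disulfide bond formation in the endoplasmic reticulum, was at 12.9, 17.2 and 18.8 FPKM in the NS control samples and at 20.5, 20.7 and 21.1 FPKM in the BCL9 KD samples, with the lowest value in NS control replicate 1. Its log2 fold change was 0.36 (limma adjusted p = 0.144), 0.18 with the GC correction and 0.20 without NS control replicate 1. P4HA2, a collagen prolyl hydroxylase subunit, did not overlap between groups (log2 fold change −0.11, limma adjusted p = 0.388, and −0.08 without NS control replicate 2). For 15.3% of its span P4HA2 lies over PDLIM4 on the opposite strand, which had a higher mean level (19.5 against 4.71 FPKM). The limit on strand named for CA9 holds for P4HA2 too.

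The remaining HIF targets had overlapping groups. ADM, P4HA1, KDM3A and DDIT4 encode the vasoactive peptide adrenomedullin, the other collagen prolyl hydroxylase subunit, a histone demethylase and an inhibitor of mTORC1 signaling, and their log2 fold changes lay between −0.26 and 0.08. That of ADM was −0.11 without NS control replicate 2 (−0.26 with all samples), and without NS control replicate 1 that of P4HA1 was −0.09 and that of KDM3A −0.01. DDIT4 was among the most expressed of the 42 genes, at 296 to 334 FPKM over the 6 samples. ANKRD37 was under the level tested, at 0.273 to 0.590 FPKM.

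SLC16A3 (ENSG00000141526, chromosome 17 from 82228397 to 82261129) encodes MCT4, a monocarboxylate transporter known for lactate export in glycolytic cells. Of the 42 genes, it alone passed the test as higher in BCL9 KD samples. It was at 28.7, 27.9 and 26.5 FPKM in the NS control samples and at 35.7, 38.4 and 39.9 FPKM in the BCL9 KD samples. All BCL9 KD values were above all NS control values, with means of 27.7 ± 1.09 and 38.0 ± 2.10 FPKM (SD, n = 3). The log2 fold change was 0.45 (SE 0.0712, 95% confidence interval 0.28 to 0.62, limma adjusted p = 0.0255). The adjusted p was 0.122 without NS control replicate 2, 0.146 without BCL9 KD replicate 2, 0.153 without BCL9 KD replicate 3, 0.0552 with median-of-ratios scaling and 0.0575 without a filter on low FPKM. The gene lies over CSNK1D on the opposite strand for 67.5% of its span, so the limit on strand named for CA9 holds here too.

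SLC16A1, which encodes the monocarboxylate transporter MCT1, was at 37.9, 48.8 and 45.1 FPKM in the NS control samples and 39.5, 40.4 and 39.6 FPKM in the BCL9 KD samples. The groups overlapped, and the log2 fold change was −0.13 (limma adjusted p = 0.410), −0.23 without NS control replicate 1 and −0.05 without NS control replicate 2. With the GC correction and all samples it was −0.29 and passed (limma adjusted p = 0.0471). Of the summed FPKM of both transporters, SLC16A3 made up 43.0%, 36.4% and 37.01% in NS control samples and 47.5%, 48.7% and 50.2% in BCL9 KD samples. The shares did not overlap, and the mean share was 9.99 percentage points higher in BCL9 KD cells (p = 0.1 by a two-sided exact permutation test, the lowest that 3 samples against 3 can reach, 0.267 adjusted over 8 shares). The difference was between 8.78 and 12.1 percentage points with each sample left out.

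SLC2A1, which encodes the glucose transporter GLUT1, was at 46.7, 45.2 and 37.9 FPKM in the NS control samples and at 33.0, 36.6 and 36.8 FPKM in the BCL9 KD samples. The lowest NS control value was just above the highest BCL9 KD value. Its log2 fold change was −0.28 (limma adjusted p = 0.127), and it passed without NS control replicate 3 (−0.37, limma adjusted p = 0.0405). SLC2A3, the gene of GLUT3, had 1 read in each NS control sample and 0 in each BCL9 KD sample, at or under the 3 reads that a count of 0 allows, and no fold change is given.

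Along glycolysis, levels per length differed widely between the enzymes. ENO1 (enolase 1) and GAPDH (glyceraldehyde-3-phosphate dehydrogenase) were at 1429 to 1979 and 1202 to 1676 FPKM over the 6 samples, and PKM (pyruvate kinase), LDHA and TPI1 (triosephosphate isomerase) were between 312 and 594 FPKM. The first steps were lower: HK1, HK2 and GPI were between 46.8 and 68.7 FPKM in all samples. The enzymes ENO2 and LDHB, isoenzymes of ENO1 and LDHA, were listed at 1.74 to 2.31 and 0.576 to 1.56 FPKM, the latter from an uncertain row. Reads on the 15 glycolytic enzymes together made up 2.26%, 1.93% and 1.84% of all reads in NS control samples and 1.69%, 1.70% and 1.69% in BCL9 KD samples. The NS control samples were all above the BCL9 KD samples and differed more among themselves, and ENO1, PKM and GAPDH supplied most of these reads.

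**Figure D2:**
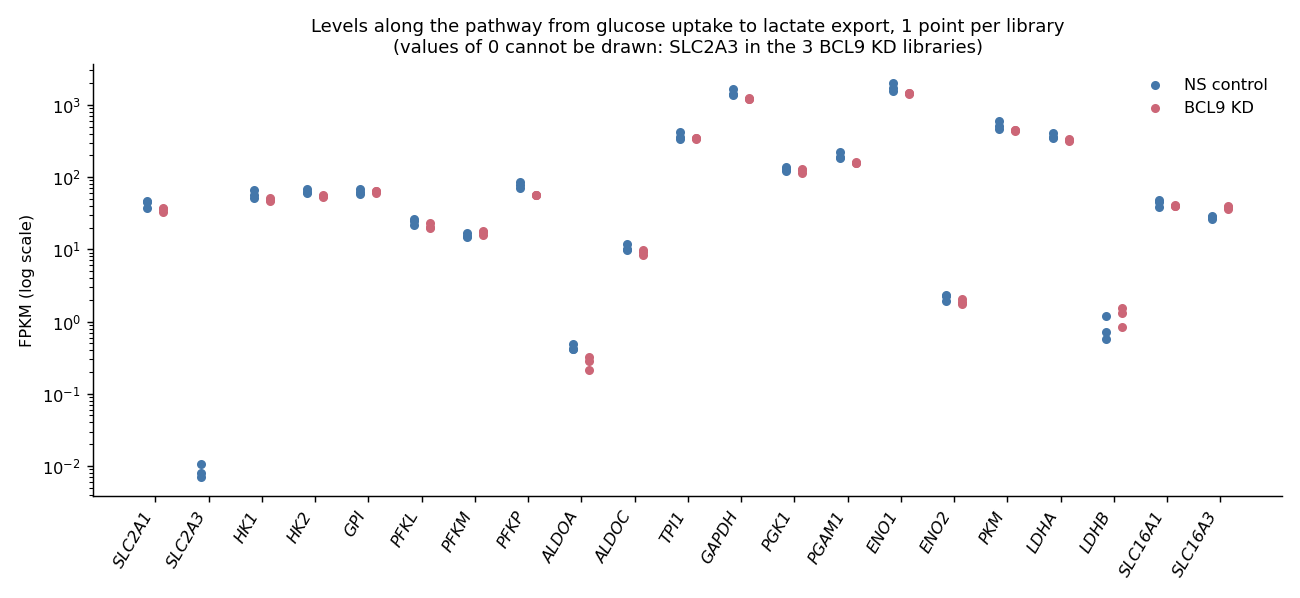
FPKM on a log scale (y axis) of transporters and enzymes ordered from glucose uptake to lactate export (x axis), 1 point per sample, NS control in blue and BCL9 KD in red. ENO1 and GAPDH lay above 1200 FPKM in all 6 samples, ALDOA, LDHB, ENO2 and SLC2A3 lay at the bottom, and SLC2A3 was at 0 in the BCL9 KD samples and cannot be drawn there.

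PFKP (ENSG00000067057, chromosome 10 from 3066333 to 3137712) encodes the platelet-type subunit of phosphofructokinase, which catalyses the committed step of glycolysis. Among the glycolytic enzymes it alone passed the test, as lower in BCL9 KD samples. Its expression was 85.6, 77.4 and 69.5 FPKM in the NS control samples and 55.9, 56.6 and 55.9 FPKM in the BCL9 KD samples. The BCL9 KD values were nearly equal and all below the NS control values. The log2 fold change was −0.46 (SE 0.0867, 95% confidence interval −0.66 to −0.25, limma adjusted p = 0.0370). The adjusted p was 0.146 without NS control replicate 2, 0.0618, 0.168 and 0.170 without BCL9 KD replicates 1, 2 and 3, 0.0579 with median-of-ratios scaling and 0.0929 without a filter on low FPKM.

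PFKL and PFKM encode the liver-type and muscle-type subunits, and neither passed the test. PFKL had a log2 fold change of −0.19 (adjusted p = 0.244 by limma) and PFKM of 0.11 (limma adjusted p = 0.421), both with overlapping groups. With a sample left out, PFKL was between −0.27 (without NS control replicate 3) and −0.12 (without NS control replicate 1) and PFKM between 0.06 and 0.16 in the same fits. PFKP made up 66.3%, 66.0% and 65.6% of the summed FPKM of the 3 subunits in NS control samples. In BCL9 KD samples its share was 59.1%, 59.6% and 59.9%. The difference of −6.38 percentage points was many times the spread within either group (SD 0.356 and 0.446 percentage points, p = 0.1 by the same exact permutation test, 0.267 adjusted over 8 shares). It stayed between −6.57 and −6.13 percentage points with each sample left out, and being a share within a sample it does not depend on the scaling between samples.

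The other shares overlapped between the groups or rested on few reads. HK2 made up 47.5% to 55.03% of the summed FPKM of HK1 and HK2 in NS control samples and 52.0% to 53.5% in BCL9 KD samples. The shares of PFKFB4 and ENO2 within their pairs overlapped between groups. The shares of ALDOC and LDHA rest on the rows of ALDOA and LDHB, whose counting is uncertain, and are not given. The share of SLC2A3 rests on the single reads named above.

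**Figure D3:**
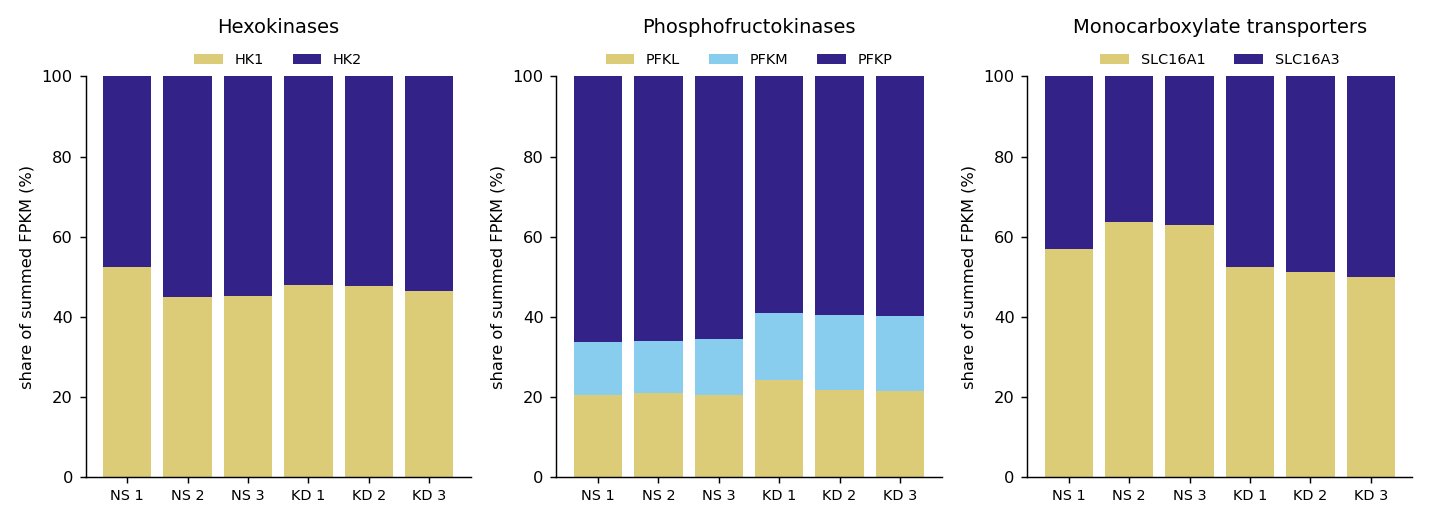
Share of the summed FPKM (y axis, percent) taken by each hexokinase, phosphofructokinase subunit and monocarboxylate transporter in the 6 samples (x axis, NS control 1 to 3 and BCL9 KD 1 to 3). The PFKP share was 65.6% to 66.3% in NS control and 59.1% to 59.9% in BCL9 KD samples, and the SLC16A3 share was 36.4% to 43.0% and 47.5% to 50.2%.

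The other 13 glycolytic enzymes tested did not pass, and 11 of them had a log2 fold change below 0. HK2, a hexokinase that is a known HIF target, was at 60.8, 68.2 and 62.0 FPKM in the NS control samples and at 56.0, 52.8 and 53.9 FPKM in the BCL9 KD samples. Its groups did not overlap, and its log2 fold change was −0.23 (limma adjusted p = 0.0970). PGAM1 (phosphoglycerate mutase), GAPDH, ENO1, PKM and ALDOC (aldolase C) were also lower in every BCL9 KD sample than in any NS control sample. Their log2 fold changes were −0.30 for PGAM1 (limma adjusted p = 0.0814), −0.28 for GAPDH (0.137), −0.28 for ENO1 (0.142), −0.23 for PKM (0.188) and −0.21 for ALDOC (0.241). These 5 genes were highest in NS control replicate 1, and without this sample the log2 fold changes were −0.22 for PGAM1, −0.18 for GAPDH, −0.18 for ENO1, −0.13 for PKM and −0.12 for ALDOC. PGAM1 and PKM passed with quantile normalization, where 7.88% of all genes passed. Over all alternatives their lowest log2 fold changes were −0.48 and −0.46.

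For HK1, TPI1, PGK1 (phosphoglycerate kinase) and ENO2, the groups overlapped and log2 fold changes lay between −0.24 and −0.09. That of HK1 was −0.13 without NS control replicate 1 (−0.24 with all samples), and in the same fit that of TPI1 was −0.03 (−0.12) and that of PGK1 −0.04 (−0.09). The log2 fold change of PGK1 was also −0.04 without BCL9 KD replicate 1, and that of TPI1 −0.18 without NS control replicate 2. Over all alternatives the lowest values were −0.32 for HK1, −0.23 for TPI1, −0.22 for PGK1 and −0.24 for ENO2. GPI (glucose-6-phosphate isomerase) was at 57.9 to 68.7 FPKM in NS control and 60.9 to 63.6 FPKM in BCL9 KD samples, with a log2 fold change of 0.00 and an interval from −0.19 to 0.19. Over the 14 enzymes tested the median log2 fold change was −0.22, or −0.19 with the GC correction, beside 0.04 and −0.01 over all genes tested. Without NS control replicate 1 the median of the 14 was −0.13, beside 0.00 over all genes. Of the 299 genes with a mean FPKM of 100 or more, 37.8% had a log2 fold change below 0 with a median of 0.10, and the 8 of the 42 genes at this level were all below 0 with a median of −0.21. Without NS control replicate 1, 7 of the 8 were below 0 with a median of −0.13, DDIT4 being at 0.01, and the median of the 299 was 0.14. Without BCL9 KD replicate 1, 7 of the 8 were below 0 as well. With quantile normalization, 53.2% of the 299 were below 0 with a median of −0.01, and the 8 were below 0 with a median of −0.25.

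The enzyme ALDOA is the exception among the enzymes of the main path, with 0.416 to 0.482 FPKM in NS control and 0.211 to 0.322 FPKM in BCL9 KD samples. Its row rests on 31 to 60 reads in a sample and lies for 99.8% of its span inside AC093512.2 on the same strand. How the counting treated reads that lie in both genes is not given in the sources used here, so the level of aldolase A cannot be read from this row. LDHB shares 22457 bases with AC010197.2 on the same strand, rests on 39 to 105 reads in a sample and is uncertain in the same way. ALDOC lies over its whole span inside RP11-192H23.4 on the same strand, so its level carries the same limit. For GPI and HIF1A, 13.7% and 26.8% of the span lie over RP11-618P17.4 and RP11-618G20.1 on the same strand. The limit covers that part of both genes.

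PFKFB3 and PFKFB4 encode bifunctional enzymes that set the level of fructose 2,6-bisphosphate, an activator of phosphofructokinase, and neither passed the test. PFKFB3 was at 18.6, 19.2 and 17.2 FPKM in the NS control samples and at 14.7, 16.4 and 16.0 FPKM in the BCL9 KD samples. Its groups did not overlap (log2 fold change −0.22, limma adjusted p = 0.128). PFKFB4 was at 5.15, 5.26 and 4.51 FPKM and at 4.85, 4.73 and 4.34 FPKM, with overlapping groups (log2 fold change −0.09, limma adjusted p = 0.544). It was −0.15 without NS control replicate 3, −0.05 without NS control replicate 2 and −0.05 without BCL9 KD replicate 3.

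At the branch point of pyruvate, LDHA was at 411, 362 and 348 FPKM in the NS control samples and at 312, 334 and 331 FPKM in the BCL9 KD samples. Its groups did not overlap, and its log2 fold change was −0.20 with an interval from −0.40 to 0.01 (limma adjusted p = 0.191), or −0.13 without NS control replicate 1. LDHA passed with quantile normalization, where 7.88% of all genes passed, and its lowest log2 fold change over all alternatives was −0.29. PDK1, a kinase that inhibits pyruvate dehydrogenase, was at 2.82, 4.002 and 3.94 FPKM in the NS control samples and 3.31, 2.89 and 3.10 FPKM in the BCL9 KD samples, with overlapping groups (log2 fold change −0.17, limma adjusted p = 0.444). Without NS control replicate 1, 2 or 3, the log2 fold change of PDK1 was −0.31, −0.09 and −0.11. LDHB, from its uncertain row, had a log2 fold change of 0.39 with an interval from −0.18 to 0.95. It was 0.66 by voom and between 0.24 (without NS control replicate 1) and 0.58 (without NS control replicate 3) with a sample left out.

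**Figure D4:**
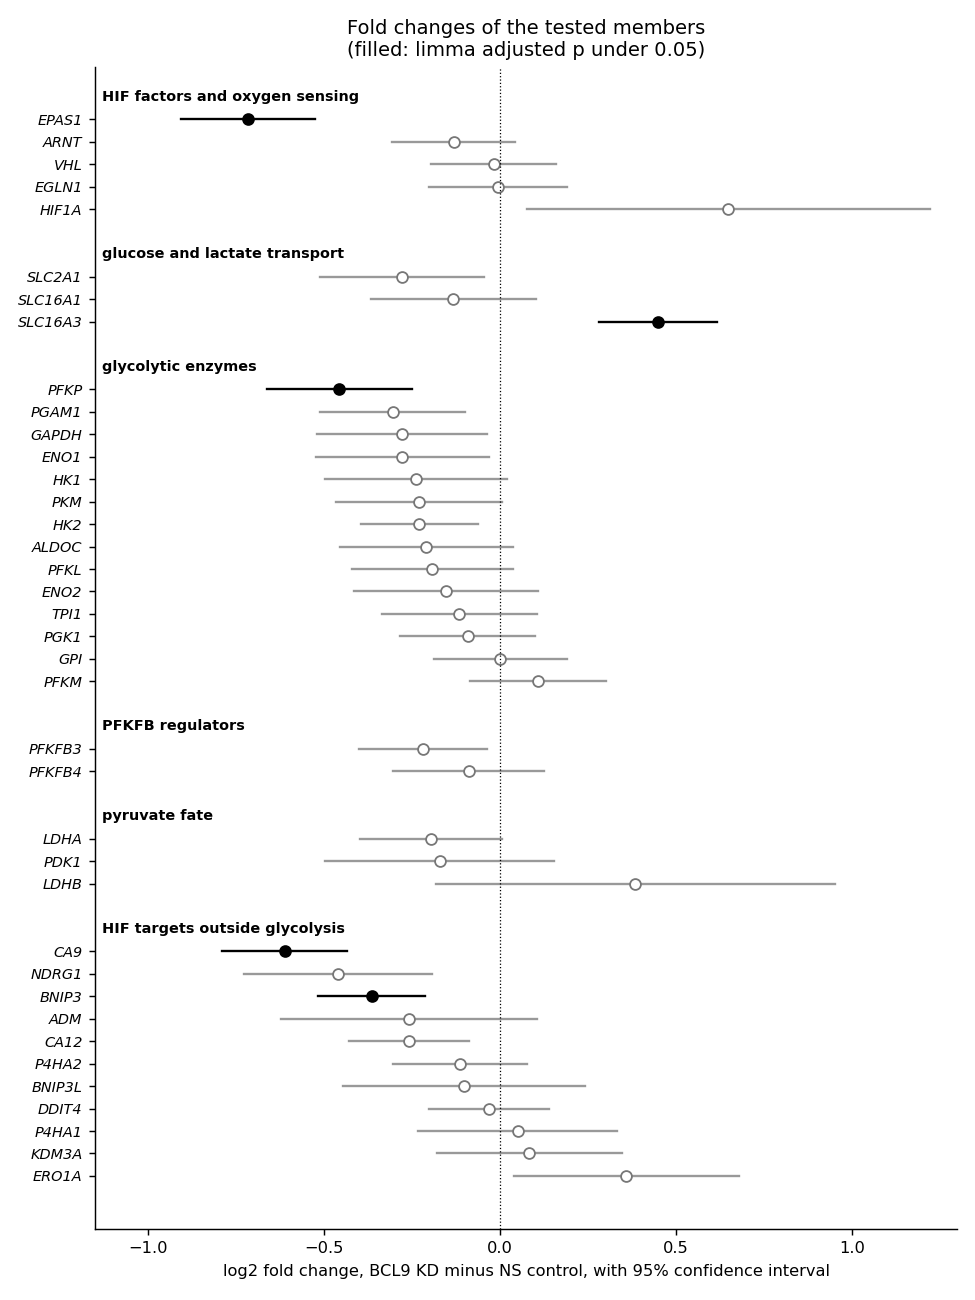
Log2 fold change of BCL9 KD minus NS control (x axis) with its 95% confidence interval for the 38 genes tested, by role. Filled points passed at a limma adjusted p under 0.05: EPAS1, PFKP, CA9 and BNIP3 lie below 0 and SLC16A3 above 0, and HIF1A has an interval from 0.08 to 1.22.

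Over all roles, 30 of the 38 genes tested had a log2 fold change below 0 and 8 above, with a median of −0.16. Below 0 were 78.9% of these genes and 44.6% of all 13745 genes tested. Of the further genes of the same pathways described below, 7 of 20 glycolysis and pyruvate genes, 4 of 10 HIF factors and 15 of 32 HIF targets were below 0, with medians of 0.03, 0.16 and 0.01. Every BCL9 KD sample was below every NS control sample for 17 of the 38 and above for 3, where 16.4% and 17.8% of all genes tested did so, 34.2% in either direction. Of the 4 genes not tested, ANKRD37 overlapped, while the rows of EGLN3, ALDOA and SLC2A3 give no direction for the reasons above. The genes share pathways and libraries and are not independent of each other, and the counts describe them without a test of the group.

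The 9 genes tested with a transcript GC content under 45% were HIF1A, EGLN1, SLC16A1, PGK1, LDHB, PDK1, P4HA1, KDM3A and ERO1A. Their median log2 fold change was 0.05 as deposited and −0.17 with the GC correction. With it, PGK1 went from −0.09 to −0.17, PDK1 from −0.17 to −0.25, LDHB from 0.39 to 0.28, P4HA1 from 0.05 to −0.19 and KDM3A from 0.08 to −0.02. The 29 genes with a higher GC content had a median of −0.22 as deposited and −0.20 with the correction. Without NS control replicate 1 the medians of the 9 and the 29 were −0.04 and −0.14. In NS control replicate 1, the median deviation of the 9 genes from their 6-sample mean was −0.23 on the log2 scale, and it was 0.18 for the other 29. Single genes differed from these medians, since PGK1, of the 9, had its highest FPKM in this sample and BNIP3L, of the 29, its lowest. With the correction, 7 of the 38 passed, with NDRG1 and SLC16A1 added to the 5, where 11.8% of all genes passed, 5.32% higher and 6.52% lower.

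**Figure D5:**
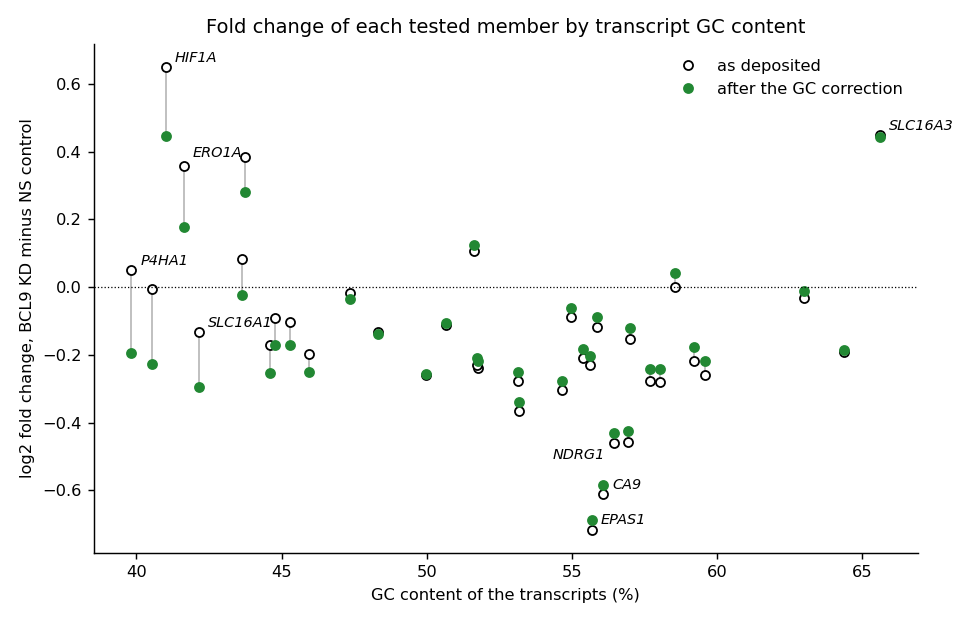
Log2 fold change of BCL9 KD minus NS control (y axis) against the GC content of the transcripts in percent (x axis) for the 38 genes tested, as deposited (open) and after the GC correction (green), joined by a line for each gene. HIF1A went from 0.65 to 0.45 and ERO1A from 0.36 to 0.18, while EPAS1 went from −0.72 to −0.69 and SLC16A3 from 0.45 to 0.44.

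Other genes of the same pathways were read from the same fit. Of 20 tested among 32 further genes of glycolysis and pyruvate metabolism, PDK4 passed and rose, 5.0% of those tested, beside 5.87% of all genes. PDK4, another kinase that inhibits pyruvate dehydrogenase, was at 1.53 ± 0.0812 FPKM in NS control and 2.95 ± 0.264 FPKM in BCL9 KD cells (SD, n = 3, log2 fold change 0.76, limma adjusted p = 0.0178). Its relatives PDK1, PDK2 and PDK3 had overlapping groups and did not pass (log2 fold changes −0.17, 0.01 and −0.18). With the GC correction, the log2 fold change of PDK4 was 0.54 (limma adjusted p = 0.0576). PCK2 (log2 fold change 0.45, limma adjusted p = 0.0607) and BSG (0.34, 0.0676), named here after their values were seen, passed with the GC correction (0.0210 and 0.0342) and by voom (0.0438 and 0.0477). Among the HIF factors and targets given next, the same held for HIF1AN (−0.37, 0.0625, with 0.0480 and 0.0375), and TFRC (−0.13, 0.499) passed with the GC correction (−0.32, 0.0364). Of 10 tested among 11 further factors of the HIF pathway, ELOB (log2 fold change 0.68, limma adjusted p = 0.0357) and RBX1 (0.74, 0.0422) rose, where 2.96% of all genes did. Both encode components of the ubiquitin ligase in which VHL recognises the α subunits, and VHL itself had a log2 fold change of −0.02. The further components ELOC and CUL2 did not pass, and ELOC was higher in every BCL9 KD sample (log2 fold change 0.39). Without a filter on low FPKM, PDK4, ELOB and RBX1 did not pass (0.0575, 0.104 and 0.117). Nor did they pass without NS control replicate 2, BCL9 KD replicate 2 or BCL9 KD replicate 3, with adjusted p from 0.0913 to 0.183, and ELOB and RBX1 also with median-of-ratios scaling (0.0517 and 0.0614) and without NS control replicate 1 (0.0534 and 0.0520), and RBX1 also without NS control replicate 3 (0.0520).

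Of 32 tested among 35 further HIF target genes, 5 fell and CSRP2 rose (log2 fold change 0.71, limma adjusted p = 0.0243), while 15 of the 32 were below 0 and 17 above. Those that fell were LOXL2, a lysyl oxidase that crosslinks collagen (−0.57, limma adjusted p = 0.0122), KDM4B, a histone demethylase (−0.51, 0.0344), VLDLR, a lipoprotein receptor (−0.55, 0.0466), GYS1, the muscle glycogen synthase (−0.42, 0.0422), and ZNF395 (−0.36, 0.0402). Together the 6 are 18.8% of those tested, beside 5.87% of all genes tested. Without NS control replicate 2, BCL9 KD replicate 2 or BCL9 KD replicate 3, none of the 6 passed, with adjusted p between 0.0827 and 0.197. Without a filter on low FPKM, LOXL2 alone of the 6 passed, and the others had adjusted p from 0.0743 to 0.125. ZNF395 and GYS1 did not pass with median-of-ratios scaling (0.0530 and 0.0606). ZNF395 and GYS1 also did not pass without NS control replicate 1 (0.0505 and 0.0541) or BCL9 KD replicate 1 (0.0573 and 0.0537), nor VLDLR without NS control replicate 3 (0.0565) or BCL9 KD replicate 1 (0.0559). VEGFA, the angiogenic factor and a classical HIF target, was at 9.51 to 10.9 FPKM in NS control and 10.2 to 10.7 FPKM in BCL9 KD samples, with a log2 fold change of 0.02 and an interval from −0.16 to 0.20. Its groups overlapped, as did those of DDIT4, P4HA1 and KDM3A.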

How the data were processed

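RNA-seq measured gene expression in 3 NS control and 3 BCL9 KD samples of DCIS.COM cells, grouped by their labels. Per the labels and the methods, the authors used STAR for alignment to hg38 and HTSeq 0.6.1 for counting, and deposited FPKM, the count divided by gene length and depth. Gene length, in other units, stands beside the deposited values. The study's own test took counts. The deposited FPKM were tested here on a log scale, with voom on the recovered reads as an alternative. FPKM multiplied by gene length gave whole reads within a tolerance of 0.1 for all values, which gave the depths. The strand setting and overlap mode of the counting are not given in the sources used here.

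Limma 3.58.1 in R 4.3.3 was fitted with an empirical Bayes trend to log2(FPKM + 0.5) for the contrast of BCL9 KD minus NS control. It took the 13745 genes whose mean FPKM reached 0.5, with Benjamini-Hochberg adjustment over all of them. The added 0.5 makes the fold changes of low genes smaller. The fit was tested on simulated data. The GC correction used a loess span of 0.3 and transcripts of GRCh37, which gave a GC content for 98.8% of genes tested. Isoenzyme shares were compared by a two-sided exact permutation test. With 3 samples a group, p-values measure the spread between flasks of cells. Intervals from the reads cover counting error only. The alternatives were another added value (1 or 0.1 FPKM), another filter (mean of at least 1 or none), median-of-ratios scaling, quantile normalization, the GC correction, voom on the recovered reads, a replicate block with and without the GC correction, and leaving out each sample. Promoters came from RefSeq and were read with Python 3.11.

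The 42 genes, the roles and the other lists were chosen with earlier results of these data known. Of the 42 genes, those that passed and 11 regulators, rate-setting enzymes and HIF targets set by name are given with the value of every sample. Others of the 42 without overlap or with an unadjusted p under 0.05 by limma are given by fold change and adjusted p, and the rest by ranges and counts. Of the other lists, genes that passed are given by fold change and adjusted p, a few more are named, and the rest are counted. The study's methods mention 2 biological replicates a condition, and the labels and the table hold 3.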

Additional observations from a re-analysis of the deposited data

How the results depend on the processing

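Of 48 genes (the 38 tested, the 9 others of these pathways that passed and VEGFA), 40 kept the direction of the log2 fold change under every alternative run. The replicate block and the other filters cannot change a fold change in this balanced design and bear on the calls alone. The direction of EGLN1, VHL, GPI, BNIP3L, P4HA1, KDM3A, DDIT4 and VEGFA, all with log2 fold changes between −0.10 and 0.08, changed under at least 1 alternative: with the GC correction for P4HA1 (−0.19) and KDM3A (−0.02), with both scalings for GPI and VEGFA, and for all 8 with a sample left out. For 31 of the genes, calls were followed as well, and of 496 values 98 lost and 8 gained an adjusted p under 0.05. The counts moved more. Without a filter on low FPKM, 142 genes passed and 2 of the 42 (EPAS1 and CA9). With median-of-ratios scaling, 536 genes and 3 of the 42 passed (EPAS1, CA9 and BNIP3), of the 536 44.4% higher against 50.4% of the 807 as deposited. With quantile normalization, 1083 genes passed, 43.4% of them higher, and 8 of the 42 (with PGAM1, PKM and LDHA added). With the GC correction 1607 genes passed, and by voom on the recovered reads 1400 genes and 6 of the 42 (with NDRG1 added). Both the scaling and the quantile alternative gave the 38 genes a lower median (−0.20 and −0.23, from −0.16), and the median of all genes fell as well, from 0.04 to 0.00 and −0.01, so that the median of the 38 minus that of all genes was −0.20 as deposited, −0.20 with the scaling and −0.22 with quantile normalization. Without NS control replicate 1 it was −0.13. Leaving out 1 sample moved the log2 fold change of 24 of the 38 genes by over 1.5 times in at least 1 fit, none of them among the 5 that passed. With each sample left out, between 5 and 1712 genes and between 0 and 8 of the 42 passed, the log2 fold change of BCL9 was between −1.06 and −0.95, and the difference in the HK2 share was between −2.30 and 1.45 percentage points, below 0 without NS control replicate 1 (−2.30) and without BCL9 KD replicate 3 (−0.29) and 0.168 with all samples. Fits without a sample test 3 against 2 and have fewer samples to estimate the spread, and the cause was not tested further.

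With the replicate block, limma called 0 genes and 0 of the 42 (3235 genes and 12 of the 42 at an unadjusted p under 0.05), and BCL9 had an adjusted p of 0.0656, its log2 fold change of −0.99 being fixed by the design. With the GC correction and the block together, 120 genes and 1 of the 42 (EPAS1) passed. The numbers did not pair the samples: across genes, samples of the same number deviated from their groups with a mean correlation of −0.0795, against 0.0387 for different numbers, and no pairing was used. Several glycolytic enzymes with log2 fold changes near −0.3 had groups that did not overlap and an unadjusted p under 0.05 and did not pass the adjustment over 13745 genes, and the 4 of the 42 genes with a mean FPKM under 0.5 were left out of the test by the filter.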
